A study of Mus musculus with 6 samples.

Results

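The nuclear factors of activated T cells (NFAT) and the phosphatase calcineurin were followed here through 9 genes of the 52550 in the deposited gene table. They comprised the NFAT transcription factor genes Nfatc1, Nfatc2, Nfatc3 and Nfat5, the calcineurin catalytic subunit genes Ppp3ca, Ppp3cb and Ppp3cc, the regulatory subunit gene Ppp3r1, and Rcan1, whose product binds and restrains calcineurin. The genes were taken by their symbols, with earlier results of these data known. They had 56 of the 131146 transcripts listed. RNA was sequenced from wild-type (WT) mouse splenic CD3+ T cells, isolated with magnetic beads and stimulated for 24 h with anti-CD3/CD28, which engages the T cell receptor (TCR) and the costimulatory receptor CD28. In 3 biological replicates the cells were activated alone (TCR alone). In the other 3 the small molecule DMGV (dimethylguanidino valeric acid) was added at 100 ng/ml (TCR+DMGV). The sample labels name the compound DMGV, whereas the text of the study names LNY1 at 100 ng/ml for this experiment. The study equates LNY1 with asymmetric and symmetric dimethylarginine, which it reports are metabolized to DMGV by the enzyme AGXT2. Which compound was added cannot be settled here, so it is given as labelled. All 6 samples carry the TCR stimulus, and no resting T cells were sequenced, so the values describe activated cells and not their activation. The age and sex of the mice are not given in the labels.

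A TCR signal raises cytosolic calcium, calcium-bound calmodulin activates calcineurin, and calcineurin removes phosphates from NFATc1, NFATc2 and NFATc3, which then enter the nucleus and bind the core motif GGAAA in front of cytokine genes. Much of this control acts on the protein and its place in the cell and is not read by RNA. At the RNA level, activated T cells are known for an autoregulated upstream promoter of Nfatc1, for early polyadenylation that gives a short NFATc1 protein, and for a calcineurin-responsive internal promoter of Rcan1. NFAT5 stands apart from the family, since it responds to osmotic stress and lacks the calcineurin docking region.

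The deposited counts summed to between 37758725 and 43718867 per sample. These sums lie above the 25 to 35 M reads (M, 1e6) per sample stated in the labels, so 1 count need not be 1 sequenced fragment. All 10 T cell markers examined were above 1 FPKM (fragments per kilobase of gene, scaled to the sample's total), with summed levels of 827 to 938 in TCR alone and 896 to 984 in TCR+DMGV. Of 7 B cell markers, 1 exceeded 1 FPKM (Cd79b), and their summed level was 3.98 to 5.55 in TCR alone and 3.91 to 4.53 in TCR+DMGV. Of 6 neutrophil markers, 5 (S100a8, S100a9, Ly6g, Retnlg and Mpo) were listed at 0 in every sample, and of 7 monocyte and macrophage markers Cd14 was too, whereas Csf1r (1.23 to 1.62 FPKM) and Cd68 (1.05 to 1.86 FPKM) exceeded 1 in every sample. Their summed level was 2.42 to 3.74 in TCR alone and 2.45 to 3.44 in TCR+DMGV. Of 4 NK cell markers 1 exceeded 1 FPKM, Eomes (11.5 to 15.7), which activated CD8 T cells also express. The summed level of 5 erythroid markers was 4.53 to 5.58 in TCR alone and 1.92 to 4.16 in TCR+DMGV, and its part in the comparisons was not tested. TCR alone replicate 3 and TCR+DMGV replicate 1 stood apart from the others on the first principal component (scores of 42.1 and 42.9, against -34.9 to -10.5), which held 32.2% of the variance, and results that rest on them are given with and without them. In bulk RNA, fewer cells of a type and less RNA per cell cannot be told apart.

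Among the calcineurin genes, Ppp3cc had the highest mean level per length, within overlap of Ppp3r1, and Ppp3ca had the lowest. In FPKM, the means over the 6 samples ran from Ppp3cc (44.1) through Ppp3r1 (33.1), Nfatc1 (26.9), Nfatc3 (15.9), Ppp3cb (7.22), Nfatc2 (6.27), Nfat5 (4.84) and Rcan1 (4.30) to Ppp3ca (1.27). The ranges of Ppp3cc (38.4 to 51.5 FPKM) and Ppp3r1 (18.4 to 45.9 FPKM) overlapped, as did those of Ppp3r1 and Nfatc1 (23.9 to 28.3 FPKM). Nfatc3 lay from 13.5 to 20.1 FPKM in all samples, below every Nfatc1 value and above every Ppp3cb value (3.24 to 10.1). Ppp3cb, Nfatc2, Nfat5 and Rcan1 overlapped each with its neighbour, and Ppp3ca (1.06 to 1.45 FPKM) lay below every Rcan1 value (3.97 to 5.02). The order depended on how length was counted. Summed over transcripts, Nfatc1 came second with a mean of 43.3 FPKM, Nfatc3 had 32.1, Ppp3cb 21.7, Nfat5 10.3, Nfatc2 10.04 and Ppp3ca 2.68. Ppp3cc was the same, because a single transcript of it is listed, of 3 in the GENCODE M21 annotation. The FPKM of Ppp3cc thus rest on that form alone.

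**Figure D1:**
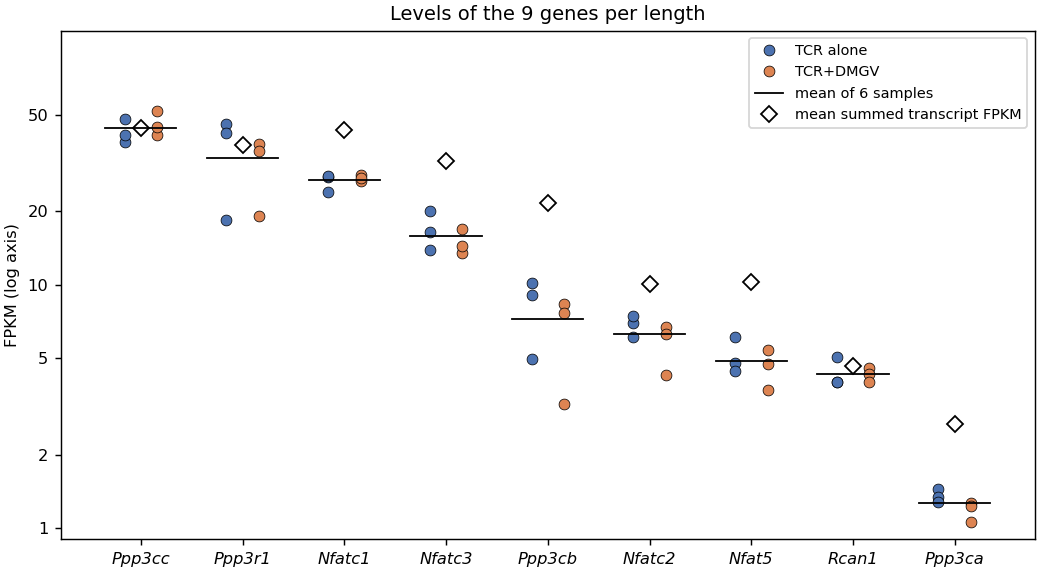
Levels per length (FPKM, log axis) of the 9 genes in the 3 TCR alone and 3 TCR+DMGV samples, ordered by the mean gene FPKM of 6 samples (line). Open diamonds are the mean of the summed transcript FPKM, which lies above the gene FPKM for every gene but Ppp3cc, most of all, as a ratio, for Ppp3cb (21.7 against 7.22).

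Of the FPKM of the 3 catalytic subunits, Ppp3cc (calcineurin A gamma) held from 78.2% to 92.0% over the samples, Ppp3cb (A beta) from 5.79% to 19.2% and Ppp3ca (A alpha) from 2.09% to 2.96%. With summed transcript FPKM the share of Ppp3cc was 53.6% to 80.6% and that of Ppp3cb 15.2% to 42.1%. In both measures the largest Ppp3cc shares and the smallest Ppp3cb shares were in TCR alone replicate 3 and TCR+DMGV replicate 1. Among Nfatc1, Nfatc2 and Nfatc3, Nfatc1 held 50.5% to 58.4% of the gene FPKM and 46.1% to 54.7% of the summed transcript FPKM, and Nfatc2 held 8.85% to 15.1% and 8.23% to 14.0%. The fourth calcium-regulated family member, Nfatc4, and the testis-type regulatory subunit gene Ppp3r2 were listed at 0 in every sample.

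The question the groups address is whether the compound labelled DMGV altered the RNA of these genes in TCR-activated cells. All 9 genes passed the filter on low counts, and 0 of 9 passed an adjusted p of 0.05 with edgeR's quasi-likelihood test, where 2 of 14786 genes tested did (0.0135%). With DESeq2 0 of 9 passed, against 14 of 22505 genes (0.0622%). None of the 9 had an unadjusted p under 0.05, whereas 1.63% of all genes tested did with a higher and 1.56% with a lower value in TCR+DMGV. In none of the 9 did the CPM of the groups (counts scaled to 1e6 per sample after TMM normalization) separate without overlap, as they did in 8.86% of genes. The log2 fold change of TCR+DMGV over TCR alone was above 0 for 2 genes (Nfatc1 and Ppp3cc) and below 0 for 7. Its median over the 9 was -0.15, beside 0.0024 over all genes tested. Every adjusted p of the 9 genes was 0.999 with edgeR, so sizes and intervals are given for each. With 3 samples against 3, the smallest p that an exact permutation test can give is 0.1.

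**Figure D2:**
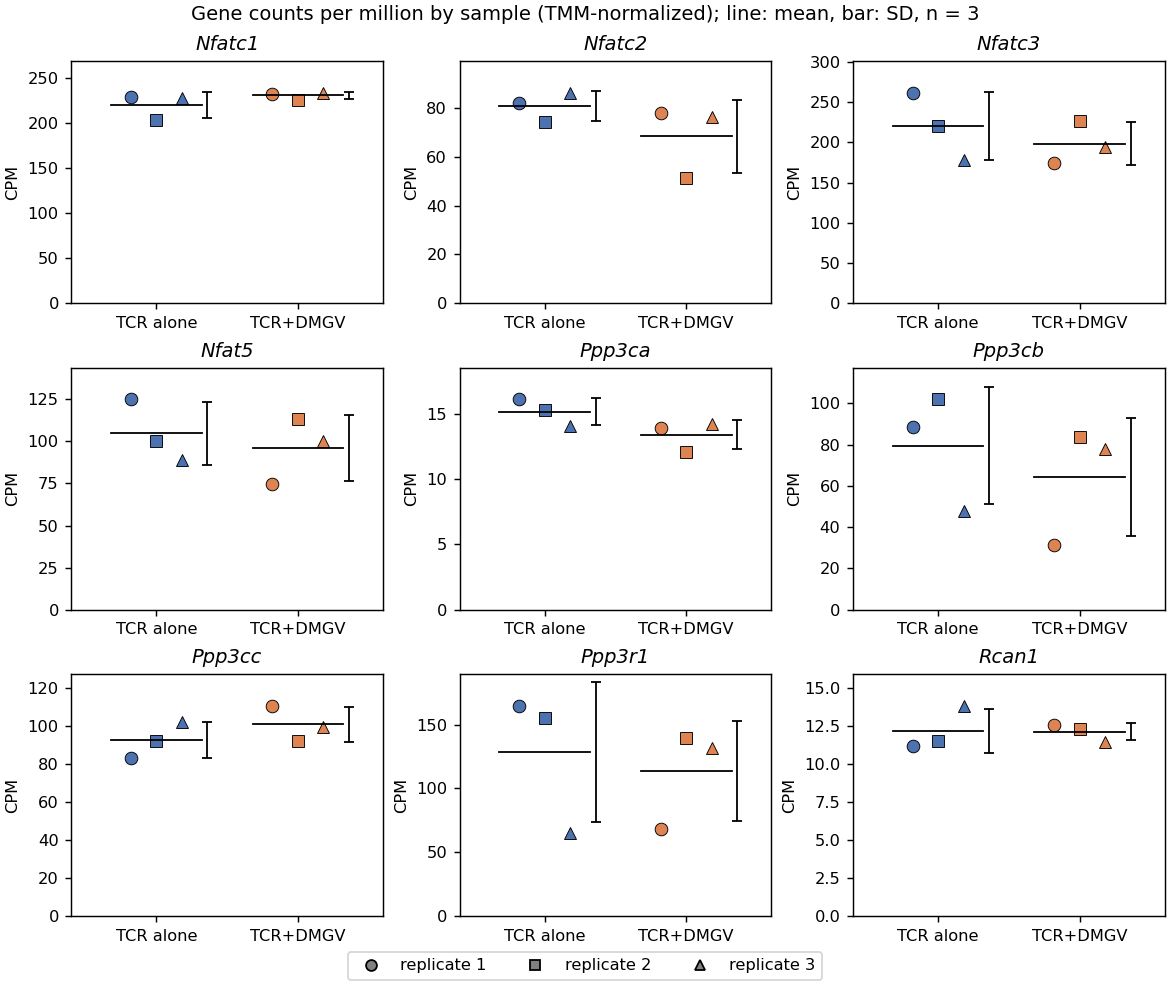
TMM-normalized CPM of each gene by sample, with the mean (line) and SD (bar) of the 3 samples per group. Point shapes are replicate numbers, which are not taken to pair samples across groups. The groups overlap in every panel, and in the panels of Ppp3cb and Ppp3r1 1 sample of each group lies far below the other 2.

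Nfatc1 (ENSMUSG00000033016.15; chr18:80606205-80713071, minus strand, GENCODE M21 on GRCm38, as all gene coordinates here) encodes the NFAT factor whose RNA is itself induced by TCR signals. It had 228, 204 and 227 CPM in TCR alone replicates 1, 2 and 3 and 232, 226 and 233 CPM in TCR+DMGV. The TCR+DMGV samples were nearly equal, and TCR alone replicate 1 and 3 reached into their range. The log2 fold change was 0.07 (standard error 0.07, 95% interval -0.11 to 0.24), the narrowest interval of the 9 genes.

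Nfatc2 (ENSMUSG00000027544.16; chr2:168476410-168601657, minus strand) encodes the NFAT factor that is present in resting T cells. It had 82.0, 74.1 and 86.2 CPM in TCR alone and 77.7, 51.1 and 76.1 CPM in TCR+DMGV. A single sample, TCR+DMGV replicate 2, lay below all the others. In log2 terms the fold change was -0.24 (standard error 0.17, 95% interval -0.63 to 0.15). Without that replicate it was -0.07.

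Nfatc3 (ENSMUSG00000031902.10; chr8:106058840-106130537, plus strand), another calcineurin-regulated factor, abundant in thymus and T cells, had 262, 221 and 178 CPM in TCR alone and 175, 227 and 194 CPM in TCR+DMGV. The lowest values were again those of TCR alone replicate 3 and TCR+DMGV replicate 1, and the groups overlapped. The log2 fold change was -0.15 (standard error 0.16, 95% interval -0.52 to 0.22). It was -0.20 without both of those samples, -0.068 without TCR+DMGV replicate 1, -0.28 without TCR alone replicate 3 and -0.024 without TCR alone replicate 1.

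Nfat5 (ENSMUSG00000003847.16; chr8:107293470-107379517, plus strand), the osmotic stress factor, had 125, 100.2 and 88.9 CPM in TCR alone and 74.5, 114 and 100.2 CPM in TCR+DMGV. The lowest value of each group was once more in TCR alone replicate 3 and TCR+DMGV replicate 1. As a log2 fold change this gave -0.12 (standard error 0.18, 95% interval -0.55 to 0.31). It was -0.075 without both of those samples, -0.23 without TCR alone replicate 3, and above 0 without TCR+DMGV replicate 1 (0.026) or TCR alone replicate 1 (0.0061).

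**Figure D3:**
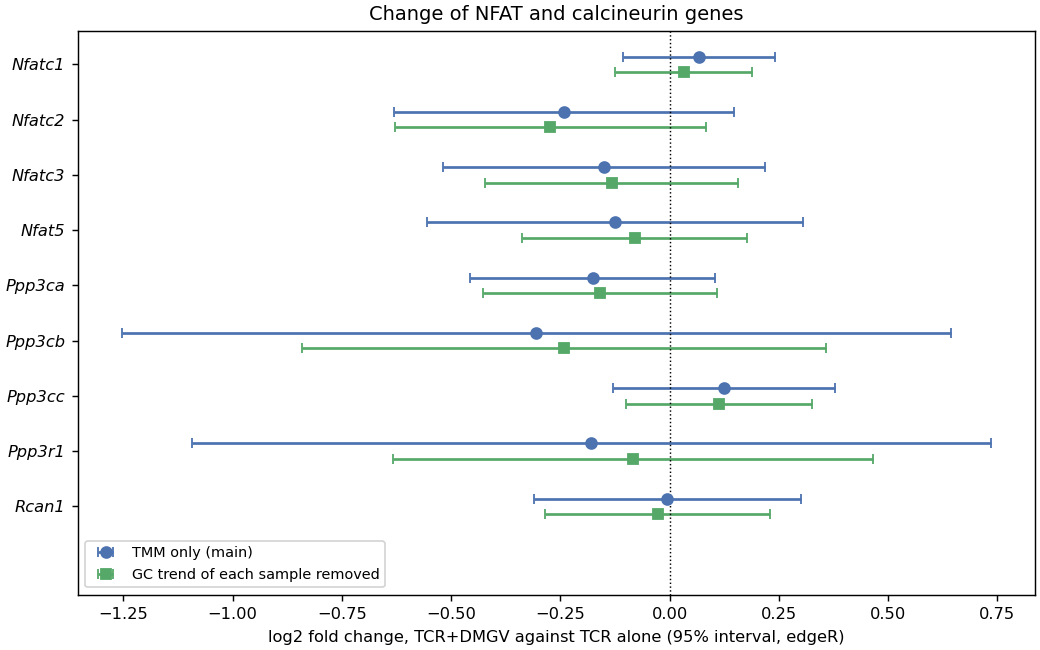
Log2 fold change of TCR+DMGV over TCR alone with its 95% interval from edgeR, for the 9 genes, with TMM alone and after each sample's trend with GC content was removed. All intervals hold 0, and those of Ppp3cb (-1.25 to 0.64) and Ppp3r1 (-1.09 to 0.74) are the widest and become narrower once the trend is removed.

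The Nfatc1 transcripts were counted by their start and their end. The upstream first exon (chr18:80712640-80713058) belongs to Nfatc1-202 and, in a shorter form, Nfatc1-204, and the downstream first exon (chr18:80708034-80708173) to Nfatc1-201 and Nfatc1-203. The short 3′ end lies in a last exon at chr18:80647435-80649964 and is that of Nfatc1-201, which has 8 exons. The other listed transcripts run on to a last exon at chr18:80606205-80608025 and have 10. The table holds 4 of the 7 Nfatc1 transcripts of GENCODE M21 and none that joins the upstream start to the short end. Reads of such an RNA could only be counted under a transcript that shares part of it, so the short share below covers only what was counted as Nfatc1-201.

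The short form held 28.8%, 30.2% and 29.9% of the counts for Nfatc1 in TCR alone and 35.4%, 26.5% and 26.9% in TCR+DMGV. The means were 29.7% ± 0.724 and 29.6% ± 5.03 (SD, n = 3 each; exact two-sided permutation test, p = 1). TCR+DMGV replicate 1 had the highest share, and the other TCR+DMGV samples had the lowest, so the groups overlapped while their means nearly coincided. The transcripts with the upstream start held 64.3%, 59.9% and 59.4% in TCR alone and 54.4%, 64.3% and 64.3% in TCR+DMGV. The means were 61.2% ± 2.69 and 61.0% ± 5.74 (SD, n = 3 each; exact two-sided permutation test, p = 1). Of 3 such comparisons of transcript forms, the Benjamini-Hochberg adjusted p was 1 in each. Within the upstream forms, Nfatc1-202 and Nfatc1-204 share their last exon and differ in the length of the first exon and of the exon before the last. Nfatc1-204 held 31.1% in TCR alone replicate 3 and between 11.2% and 20.4% elsewhere. Its log2 fold change was -0.51 (standard error 0.35, edgeR adjusted p = 1.00), and that of Nfatc1-202 was 0.31 (standard error 0.20, edgeR adjusted p = 1.00). Without TCR alone replicate 3 they were -0.15 and 0.13.

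**Figure D4:**
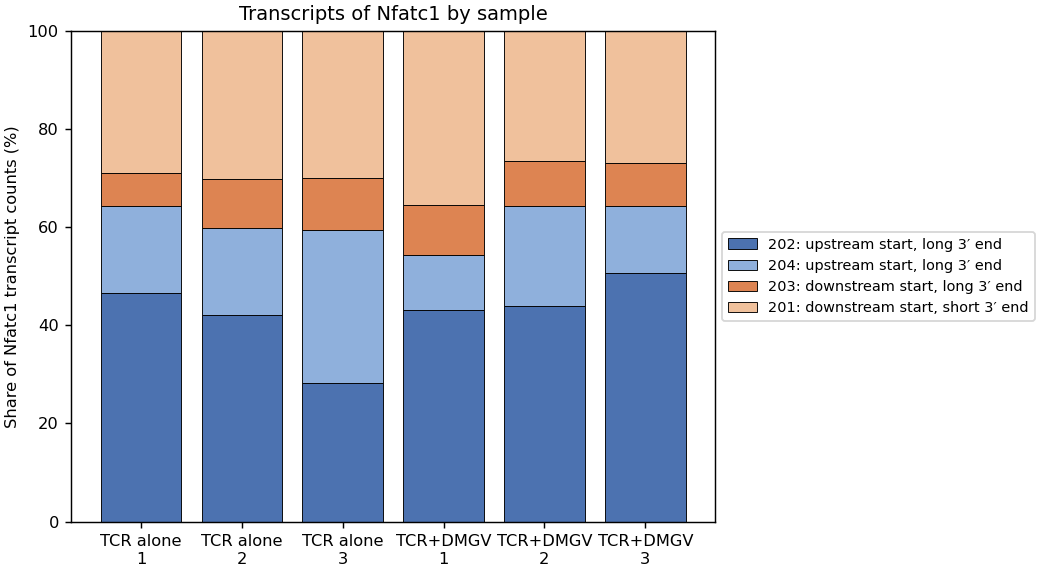
Share of the Nfatc1 transcript counts (%) assigned to each of the 4 listed transcripts in each sample. The short form Nfatc1-201 takes from 26.5% to 35.4%, and the split between the upstream-start forms Nfatc1-202 and Nfatc1-204 shifts in TCR alone replicate 3.

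Of the 56 transcripts of the 9 genes, 33 passed the filter on low counts and 6 had no count in any sample. With edgeR 0 of the 33 passed an adjusted p of 0.05, as did 0 of 38401 transcripts (0%). With DESeq2, run on all transcripts that had a count, 0 of the members' transcripts passed. Of 68434 transcripts with a DESeq2 p-value, 400 passed (0.585%), but some of the 68434 had no adjusted p and could not pass. An unadjusted edgeR p under 0.05 was found for 1 of the 33 and for 3.22% of all transcripts tested. The 1 transcript, Nfatc2-207, was named after its values were seen. It is annotated as a retained intron form and not as protein coding, and ends early within the gene, in a last exon at chr2:168533463-168535090. Its counts were 14, 17 and 22 for TCR alone and 35, 53 and 45 for TCR+DMGV, 1.09% of the gene's counts on average. The groups did not overlap, the log2 fold change was 1.25, and the adjusted p was 1.00 with edgeR and 0.24 with DESeq2. Nfatc2-207 was picked for its small p, which favours such separation, and the share of all transcripts that separate was not computed. Other forms of the gene separated too. Nfatc2-205, which edgeR did not test, was counted 0 times throughout TCR alone, then 4, 12 and 6 times under TCR+DMGV (DESeq2 adjusted p = 0.19). Nfatc2-209 separated in the lower direction, from 12, 11 and 13 down to 7, 0 and 0. Nfatc2-205 and Nfatc2-209 have 7 exons each and begin close together (chr2:168601657 and chr2:168601655), and their few counts moved in opposite directions. The part that the assignment of reads between them had in this was not tested. They too were named after their values were seen. Transcript usage, the change of a transcript against the other transcripts of its gene, was tested for 30 of the 56. With edgeR's diffSpliceDGE 0 of 30 passed, against 137 of 31395 (0.436%), and 1 had an unadjusted p under 0.05 (Nfat5-210), against 2.51% of all transcripts tested for usage. With limma's diffSplice 0 of 30 passed, against 123 (0.392%), and 2 had an unadjusted p under 0.05 (Nfatc1-204 and Nfatc2-207), against 6.7%. On counts with known changes at the spread of these transcripts, edgeR's transcript test found few of the changed ones. Thus 0 calls does not show that no transcript changed. There diffSpliceDGE called mainly transcripts that were not themselves changed. These included other transcripts of a changed transcript's gene, whose usage shifts with it, so that trial does not measure false usage calls. The 137 are therefore read neither as changed transcripts nor as false calls.

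Nfatc2 was counted almost wholly as Nfatc2-202 and Nfatc2-204, which holds an additional exon of 86 bases (chr2:168486686-168486771). Of their summed counts, the form with the 86-base exon had 47.9%, 44.2% and 46.9% in TCR alone and 40.5%, 23.9% and 49.3% in TCR+DMGV. The low value of TCR+DMGV replicate 2 belongs to the sample with the fewest Nfatc2 counts, and 510 counts were assigned to Nfatc2-204 there, against 1323 to 1657 in the others. Nfatc3 was read from Nfatc3-201 at 94.6% to 98.2% of its counts. Nfat5 was split over Nfat5-202, Nfat5-203, Nfat5-206 and Nfat5-214, of which Nfat5-206 is annotated as a target of nonsense-mediated decay and the others as protein coding. Nfat5-202 starts at a downstream first exon (chr8:107338807-107339367), and its share of 56.3%, 36.1% and 13.9% in TCR alone and 40.2%, 34.2% and 52.1% in TCR+DMGV varied more within TCR alone than between the groups.

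The calcineurin catalytic subunit gene Ppp3cc (ENSMUSG00000022092.10; chr14:70217865-70289471, minus strand) had 83.3, 91.9 and 102 CPM in TCR alone and 111, 91.9 and 99.6 CPM in TCR+DMGV. Its log2 fold change was 0.12 (standard error 0.11, 95% interval -0.13 to 0.38). Ppp3ca (ENSMUSG00000028161.17; chr3:136670124-136937727, plus strand) had 16.1, 15.3 and 14.1 CPM in TCR alone and 13.9, 12.1 and 14.2 CPM in TCR+DMGV. These CPM overlapped in a single sample of each group, and the log2 fold change was -0.18 (standard error 0.12, 95% interval -0.46 to 0.10). In FPKM the Ppp3ca groups did not overlap (1.45, 1.33 and 1.28 in TCR alone, 1.26, 1.06 and 1.23 in TCR+DMGV), which held, in the lower direction, for 4.24% of the genes tested.

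Ppp3cb (ENSMUSG00000021816.11; chr14:20499364-20546573, minus strand) had 88.8, 102 and 47.7 CPM in TCR alone and 31.6, 83.8 and 77.7 CPM in TCR+DMGV. Ppp3r1 (ENSMUSG00000033953.10; chr11:17159263-17200375, plus strand), which encodes a calcium-binding regulatory subunit of calcineurin, had 165, 155 and 65.2 CPM in TCR alone and 68.4, 140 and 132 CPM in TCR+DMGV. In both genes the low values were those of TCR alone replicate 3 and TCR+DMGV replicate 1, 1 sample of each group. Over the 6 samples the highest exceeded the lowest by 1.69 on the log2 scale for Ppp3cb and by 1.34 for Ppp3r1. The median of this range was 0.38 and its 95th percentile 1.19 over the 9076 genes with a mean above 8 CPM, and the other 7 members ranged from 0.20 for Nfatc1 to 0.75 for Nfatc2 and Nfat5.

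The log2 fold change was -0.31 (standard error 0.40) for Ppp3cb and -0.18 (standard error 0.39) for Ppp3r1. The leading transcripts of Ppp3cb and Ppp3r1 had 41.1% and 41.4% GC, the lowest of the 9 together with Nfat5 (41.9%), against 55.7% in Nfatc1. A smooth trend of each sample's log2 deviations with GC content was fitted over genes. In those 2 samples, TCR alone replicate 3 and TCR+DMGV replicate 1, its value was -0.36 and -0.29 at the GC content of Ppp3cb and -0.34 and -0.27 at that of Ppp3r1, against 0.08 to 0.26 in the others. With each sample's trend removed, Ppp3r1 had 140, 136 and 82.4 CPM in TCR alone and 82.4, 130.4 and 125 CPM in TCR+DMGV, and the range narrowed to 0.77 on the log2 scale. The range of Ppp3cb narrowed to 1.197 and that of Nfat5 to 0.32. The log2 fold change with the trend removed was -0.24 (standard error 0.26) for Ppp3cb and -0.08 (standard error 0.24) for Ppp3r1. Without those 2 samples it was -0.24 and -0.23. Without TCR+DMGV replicate 1 alone it was 0.02 and 0.08, and without TCR alone replicate 3 alone -0.56 and -0.49, and for Ppp3r1 it was also above 0 without TCR alone replicate 1 (0.027). The sign thus changed with single samples. The part of GC content in these values beyond the fitted trend was not tested.

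The catalytic subunit genes Ppp3ca and Ppp3cb share a small alternative coding exon of 30 bases near the end of the coding sequence, shown here because it tells the listed forms apart. The exon lies at chr3:136932011-136932040 in Ppp3ca-201, as exon 13 of 14, and at chr14:20503247-20503276 in Ppp3cb-205, as exon 13 of 14. Read 5′ to 3′ on the transcribed strand from the GENCODE M21 transcripts, they are identical at 26 of 30 bases, and capitals mark the 4 that differ.
Ppp3ca exon: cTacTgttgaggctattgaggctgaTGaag
Ppp3cb exon: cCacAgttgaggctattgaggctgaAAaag
The genes used their exon differently in these T cells as the counts were assigned. Ppp3ca was read at 99.1% to 99.4% from Ppp3ca-202, which lacks the exon, and Ppp3ca-201 had 0 counts in all 6 samples. At 522 to 624 counts for the gene, a share of up to 0.481% to 0.575% would be allowed if every count told the forms apart. Reads of shared exons cannot, so the true limit is higher. In Ppp3cb the forms with the exon (Ppp3cb-202 and Ppp3cb-205) held 73.8%, 78.1% and 71.7% in TCR alone and 72.7%, 80.2% and 87.4% in TCR+DMGV of the counts of these and of Ppp3cb-201, which lacks it. The values overlapped between the groups. A further form, Ppp3cb-206, ends within the gene at chr14:20507671-20508721 and held 51.7% of the Ppp3cb counts in TCR alone replicate 1, against 16.9% to 28.9% in the other samples. Such limits cover counting error only, and the counts are estimates of which transcript each read came from.

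Rcan1 (ENSMUSG00000022951.15; chr16:92391953-92470867, minus strand) is used as a readout of calcineurin, because NFAT drives its internal promoter. The gene had 11.2, 11.5 and 13.8 CPM in TCR alone and 12.6, 12.3 and 11.5 CPM in TCR+DMGV. All TCR+DMGV values lay within the range of TCR alone, and the log2 fold change was -0.0059 (standard error 0.13, 95% interval -0.31 to 0.30). Of its transcripts, Rcan1-202 begins at the upstream first exon (chr16:92465833-92466146) and Rcan1-201 at the internal one (chr16:92399896-92400077), and they share the 3 other exons. Nearly all counts were assigned to Rcan1-202, with 424, 433 and 572 in TCR alone and 559, 525 and 454 in TCR+DMGV. Rcan1-201, the form from the internal promoter, was assigned 0, 35 and 0 counts for TCR alone and 0, 4 and 0 for TCR+DMGV. If every count could tell the forms apart, a count of 0 would allow a share of Rcan1-201 of up to 0.524% to 0.708% in those 4 samples. Only reads that reach the first exon can, so the true limit is higher. The share of Rcan1-201 was 7.48% in TCR alone replicate 2. The mean shares were 2.49% ± 4.32 and 0.252% ± 0.437 (SD, n = 3 each; exact two-sided permutation test, p = 1). With a share of 0 in 4 samples, no arrangement of these values could give a small p, so this test decides nothing. The table holds 2 of the 7 Rcan1 transcripts of GENCODE M21, so other forms were not counted under their own name.

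The sequences around the alternative starts of Rcan1 are shown because the NFAT core motif parts them. Each window holds 250 bases before and 50 after the start (RefSeq, GRCm38.p6, minus strand, 5′ to 3′). Capitals mark GGAAA or, for the other strand, TTTCC.
Rcan1 upstream start, chr16:92466120-92466419: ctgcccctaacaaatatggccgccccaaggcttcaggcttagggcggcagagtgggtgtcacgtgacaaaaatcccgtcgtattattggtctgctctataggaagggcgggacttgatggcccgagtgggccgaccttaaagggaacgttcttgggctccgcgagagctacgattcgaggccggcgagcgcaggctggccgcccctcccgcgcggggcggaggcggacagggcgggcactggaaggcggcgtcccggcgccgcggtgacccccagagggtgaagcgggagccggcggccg
Rcan1 internal start, chr16:92400029-92400328: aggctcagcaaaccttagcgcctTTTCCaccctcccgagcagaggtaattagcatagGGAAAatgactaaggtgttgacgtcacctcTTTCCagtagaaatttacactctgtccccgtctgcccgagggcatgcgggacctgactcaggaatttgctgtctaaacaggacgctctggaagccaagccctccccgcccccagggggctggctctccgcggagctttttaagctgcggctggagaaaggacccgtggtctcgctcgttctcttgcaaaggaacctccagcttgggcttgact
The window of the internal start held 3 matches, 1 as GGAAA and 2 as TTTCC, and that of the upstream start held 0. Of 32851 promoter windows of this length, 61.3% held at least 1 match and 9.42% at least 3. Among the other genes, the promoter window held 4 matches in Ppp3cb, 2 in Nfat5 and 0 in Ppp3r1. The alternative windows held 3 and 1 in Nfatc2 and 1 and 0 in Nfatc3. Nfatc1, Ppp3ca and Ppp3cc were not matched in the table of promoters. A match is a description of the letters and not a binding site.

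Around the 9 genes, 30 regulators of calcineurin and NFAT were read from a list (calmodulins, calcineurin inhibitors and anchors, the kinases that return phosphates to NFAT, and nuclear transport factors). Of these, 25 were tested, and 0 passed in either direction with edgeR or DESeq2, with 0 at an unadjusted p under 0.05. Their log2 fold change was above 0 for 12 and below 0 for 13, with a median of -0.0025 beside 0.0024 over all genes. Ppp3r2, Nfatc4, Rcan2 and Nron were listed at 0, and Homer2 was below the filter. The 3 of smallest p were Rcan3, Nfatc2ip and Akap5. Nfatc2ip, an NFATc2-interacting protein gene, had 25.9, 26.9 and 27.5 CPM in TCR alone and 28.8, 30.3 and 28.3 CPM in TCR+DMGV, with a log2 fold change of 0.12 (standard error 0.09). Akap5, an anchor of calcineurin, lay at or below 0.58 CPM in every sample.

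Rcan3, a relative of Rcan1 that also binds calcineurin, had 50.9, 44.7 and 50.2 CPM in TCR alone and 46.3, 13.3 and 12.1 CPM in TCR+DMGV. TCR+DMGV replicate 1 lay in the range of TCR alone, and the other TCR+DMGV samples lay far below. The log2 fold change was -1.02 (standard error 0.49, edgeR adjusted p = 0.999). Without TCR+DMGV replicate 1 it was -1.94 with an adjusted p of 0.021, so that sample decides the call. The transcripts of Rcan3 were looked at after these values were seen. The long form Rcan3-201 (5111 bases) had 1881, 1748, 1857 and 1998 counts in the 4 high samples and 390 and 213 in the low ones. The short form Rcan3-202 (583 bases) had 9, 7, 15 and 9 counts in the former and 60 and 71 in the latter. Another short form, Rcan3-203 (724 bases), had 42, 68, 205 and 55 counts in the former and 122 and 196 in the latter. Rcan3-202 was higher where the long form was lower, whereas the highest count of Rcan3-203 was in TCR alone replicate 3, where the long form was high. The part that the assignment of reads to forms of unequal length had in the gene's value was not tested.

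The list of 39 NFAT target genes of T cells was chosen with earlier results of these data known, and some of its genes had been described as higher there, so its direction is not independent evidence. All 39 were tested, and 0 passed in either direction with edgeR or DESeq2. Of the fold changes, 27 were above 0 on the log2 scale and 12 below, with a median of 0.10 beside 0.0024 over all genes tested. An unadjusted p under 0.05 was found for 9 with a higher value in TCR+DMGV (Ccl3, Tnf, Nr4a1, Xcl1, Foxp3, Nr4a2, Ccl4, Dgka and Ptgs2) and for 1 with a lower one (Il10), beside 1.63% and 1.56% of all genes. Of these, Ptgs2 had a low level, between 0.31 and 0.72 CPM. The median of the list, as deviations of log2 CPM from each gene's mean, was -0.01, -0.03 and -0.06 in TCR alone and 0.04, 0.07 and 0.09 in TCR+DMGV. With the GC trend removed it was -0.10, -0.01 and -0.02 and then 0.09, 0.05 and 0.06. The groups did not overlap in either.

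Ccl3, the chemokine MIP-1 alpha, had the smallest p, with 294, 264 and 296 CPM in TCR alone and 362, 375 and 414 CPM in TCR+DMGV (log2 fold change 0.43, standard error 0.08, adjusted p = 0.999 with edgeR and 0.11 with DESeq2). Tnf had 27.8, 29.7 and 29.1 CPM in TCR alone and 37.8, 33.1 and 39.9 CPM in TCR+DMGV. Nr4a1, an orphan receptor gene rapidly induced by TCR signals, had 215, 208 and 245 CPM in TCR alone and 302, 268 and 261 CPM in TCR+DMGV. In these 3 genes no TCR+DMGV sample reached down to TCR alone, but they were named for their small p, which favours such separation. The groups separated in 8.86% of all genes tested, in either direction. Nr4a3, of the same list, overlapped between the groups (log2 fold change -0.27, standard error 0.37). Il2, the cytokine gene most used as an NFAT readout, had 20.7, 28.1 and 11.3 CPM in TCR alone and 17.4, 24.2 and 25.7 CPM in TCR+DMGV, and its groups overlapped widely (log2 fold change 0.16, standard error 0.32).

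**Figure D5:**
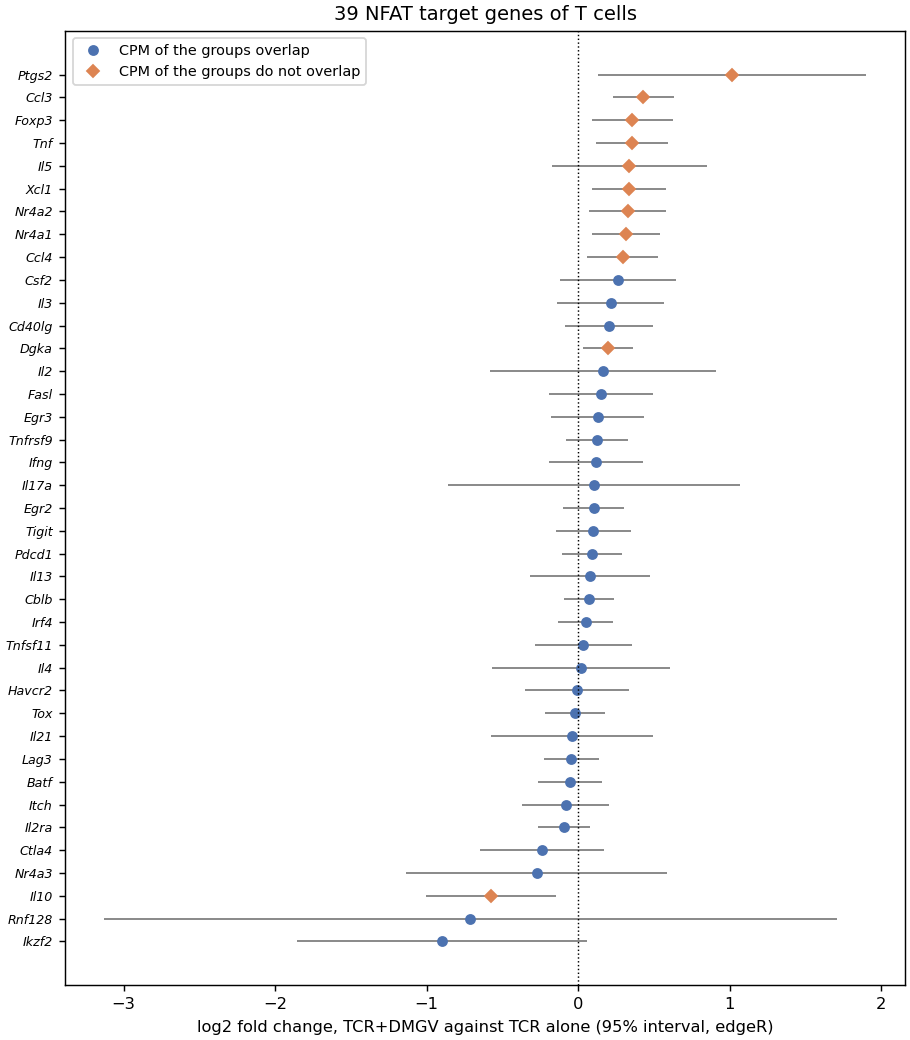
Log2 fold change of TCR+DMGV over TCR alone with its 95% interval from edgeR, not adjusted for the number of genes, for 39 NFAT target genes. Diamonds mark the genes whose CPM did not overlap between the groups. Of the 39, 27 lie above 0 and 12 below, and Il10 is the only gene with separated groups on the lower side.

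For NFAT5, 12 osmotic and stress targets were read and 9 were tested, with 0 past the threshold in edgeR or DESeq2 and 0 at an unadjusted p under 0.05. Their log2 fold change was above 0 for 3 and below 0 for 6, with a median of -0.04. As deviations of log2 CPM, the sample medians of this list were 0.19, 0.03 and 0.03 in TCR alone and -0.07, -0.01 and -0.0009 in TCR+DMGV, without overlap. With the GC trend removed they were 0.01, -0.03 and 0.13 and then 0.09, -0.05 and -0.05, and overlapped. Those of the 25 regulators overlapped on either scale. Slc6a12, Slc14a2 and Aqp2, genes of kidney and transport epithelia, were listed at 0. The 3 of smallest p were Hspa1a, Sgk1 and Akr1b3. Sgk1, a salt-induced kinase gene, had 9.40, 7.50 and 7.90 CPM in TCR alone and 7.26, 5.71 and 7.12 CPM in TCR+DMGV. Akr1b3, the aldose reductase gene that makes the osmolyte sorbitol, had 132, 171 and 169 CPM in TCR alone and 189, 168 and 171 CPM in TCR+DMGV. Hspa1a, a heat shock protein gene, lay between 0.63 and 1.43 CPM.

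The genes nearest to Nfatc1 and Rcan1 in their pattern over the 6 samples were found among 9034 genes with a mean log2 CPM of at least 3, by the root mean square difference of log2 CPM centred per gene. Those of Nfatc1 were Rhog, Zdhhc5 and Snrk (0.022 to 0.024), and those of Rcan1 were Tbc1d22a, Med24 and Thoc3 (0.019 to 0.026). The typical distance to a gene was larger, with medians of 0.14 and 0.16. Since Nfatc1 and Rcan1 varied little, by 0.066 and 0.10 about their own means, 23.1% and 18.4% of the genes lay as near to them as that.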

How the data were processed

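Reads had been cleaned by SOAPnuke and aligned by HISAT2 2.0.4 (submitters' processing notes), and expression came from StringTie. The authors deposited counts and FPKM per gene and per transcript. The deposited counts are whole numbers that are not normalized, and how they were derived from StringTie is not given in the sources used here. The deposited FPKM are scaled to length and library. The submitters' processing notes name mm9, whereas 99.7% of gene identifiers (without version) matched GENCODE M21 (GRCm38), from which names and coordinates come. The library kit is not stated to keep strand.

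The members and lists were chosen with earlier results of these data known. Gene and transcript counts were tested with edgeR 4.0.16 in R 4.3.3 (TMM, default filter, quasi-likelihood test, two-sided, Benjamini-Hochberg, threshold 0.05), with DESeq2 1.42.0 and limma 3.58.1 as alternatives. GC trends were loess fits (span 0.3) over genes with a mean log2 CPM above 3. Named were the 9 genes, the 3 genes of smallest p per list, transcripts with at least 5% of a gene's counts, and the nearest 3 genes to Nfatc1 and Rcan1. Other names were chosen after values were seen. The scripts were tested on simulated data. There the transcript test recovered few changes at the spread of these transcript counts. Most calls of diffSpliceDGE were transcripts not themselves changed, counted together with other transcripts of changed genes, whose usage shifts. For this reason limma's diffSplice was added after seeing the data. Python 3.11.15, pandas 2.3.3, scipy 1.17.1 and matplotlib 3.10.9 were used. P-values measure the spread between the samples the labels call biological replicates.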

Additional observations from a re-analysis of the deposited data

How the results depend on the processing

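None of the 9 genes passed the threshold under any alternative (16 settings each), and 136 of 144 log2 fold changes kept their sign. The 8 that turned were Nfat5, Ppp3cb, Ppp3r1 and Rcan1 when samples were left out, over ranges of -0.26 to 0.026, -0.56 to 0.021, -0.49 to 0.081 and -0.081 to 0.10 with 1 sample left out. Without TCR alone replicate 3 and TCR+DMGV replicate 1 together, Rcan1 was at 0.07. Adjusted p ran from 0.65 to 1. Of 190 values of named transcripts, 178 kept their sign and 0 passed. With 1 sample left out Nfatc1-203 ranged from -0.063 to 0.26, Nfatc1-201 from -0.10 to 0.14, Nfat5-202 from -0.41 to 0.71, Ppp3cb-205 from -0.73 to 0.37, Ppp3r1-201 from -0.51 to 0.072 and Rcan1-202 from -0.064 to 0.14. The group difference in share, in percentage points, ranged from -2.93 to 1.51 for the short Nfatc1 end, from -1.86 to 3.13 for its upstream first exon and from -3.49 to 0.25 for the internal Rcan1 start (0.25 without TCR alone replicate 2). Mean FPKM summed over transcripts was 43.3 for Nfatc1, 32.1 for Nfatc3, 21.7 for Ppp3cb, 10.04 for Nfatc2, 10.3 for Nfat5 and 2.68 for Ppp3ca.

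Over all genes, 2 passed. The count was 14 with DESeq2, 1 with library size alone, with all genes that had a count and with the GC trend removed, 0 with limma on log2(FPKM + 1) and log2(FPKM + 0.1), 12 without TCR alone replicate 3 and TCR+DMGV replicate 1, and 0 to 5 with 1 sample left out (5 without TCR+DMGV replicate 1). For transcripts it was 0 with edgeR, 400 with DESeq2 and 0 to 1 with 1 sample left out. For usage it was 137, 278 with transcripts of at least 10 counts in all, and 183 to 214 with 1 sample left out. Among regulators 0 to 1 passed with 1 sample left out, the 1 being Rcan3. The median of the NFAT targets ranged from 0.05 to 0.14. Where no cause is named, the cause was not tested.

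With the replicate number as a block, 0 genes passed and 49 transcripts passed for usage, and no call of a member changed (replicate block, Ppp3cb -0.35, Rcan1 -0.0003). The labels do not state whether equal numbers pair samples across the groups. Same-numbered samples correlated at -0.15, 0.12 and -0.15 across 14786 genes in their deviations from the group mean. TCR alone replicate 3 correlated best with TCR+DMGV replicate 1 (0.31). These samples also stood apart on the first principal component, so the correlations cannot decide whether the numbers pair samples.

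The number of samples is a limit and leaves wide intervals for Ppp3cb (-1.25 to 0.64 on the log2 scale) and Ppp3r1 (-1.09 to 0.74). Other limits are the assignment of reads to transcripts by the authors, and the listed transcripts, which leave out some forms of Nfatc1, Ppp3cc and Rcan1.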
